A study of Saccharomyces cerevisiae with 3 samples.

Results

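The 10 genes described here are *SPO1*, *SPO19*, *SMA1*, *SMA2*, *MUM3*, *SPR1*, *SPS4*, *SPR6*, *PES4* and *MIP6*, a set of budding yeast genes that are switched on in the middle of sporulation. They were taken by name from a fixed list of sporulation-induced genes, and all 10 were found among the 6218 genes on the arrays. The study followed a Δ*sum1* strain (JPY214), diploid and of the fast-sporulating SK1 background, through 6 hours in the sporulation medium SPM and then after transfer of part of that culture to the growth medium YPD for 20 or 40 minutes. Each time point was hybridized to 1 array in Cy5, against a Cy3 reference of diploid wild-type SK1 cells (NKY1551) in YPA, where acetate is the carbon source. All 3 Δ*sum1* samples are labeled as lacking *SUM1*, and the reference differs from them in both strain and medium. There is 1 culture and 1 array per time point, and no culture left in SPM for the additional 20 or 40 minutes was analysed here, so the change of medium, the passage of time and the slide cannot be told apart.

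Sporulation in yeast packages the nuclei produced by meiosis into spores. Its middle genes are turned on by the transcription factor Ndt80, and many of them are held silent during growth by the repressor Sum1, which binds an overlapping DNA element. The middle genes include those that drive the meiotic divisions and those that build the spore. Each spore forms inside a prospore membrane, a double membrane that grows outward from the spindle poles and closes around a nucleus, and the spore wall is then laid down between its layers. Of the 10 genes, *SPO1*, *SPO19*, *SMA1* and *SMA2* act on the prospore membrane, *MUM3* and *SPR1* act in the spore wall, *PES4* and *MIP6* code for paralogous RNA-binding proteins, and the functions of *SPS4* and *SPR6* are not established.

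The arrays carried 2 adjacent spots per gene, and every ± below is the SD of those 2 spots. Such an SD holds the noise of spotting and scanning only and says nothing of how cultures or slides vary. Pooled over all genes it was 0.15, 0.17 and 0.19 for the log2 ratio at 6 hours, 20 minutes and 40 minutes, and 0.23 and 0.24 for the change at 20 and 40 minutes. As no array was repeated, no test was possible and no p-value is given. Over the gene spots, the signal had a median in the same order of 4280, 2748 and 1616 for Cy5 and of 3939, 3399 and 2811 for Cy3. The channel labels and the scanner headers place the Δ*sum1* sample in Cy5, whereas the deposited labeling protocol assigns the dyes in reverse. The headers and channel labels were followed, so that a positive log2 ratio is read as more RNA in Δ*sum1* cells than in the reference. *SUM1* itself was 3.38-fold, 2.59-fold and 3.12-fold below the reference on the 3 arrays, with a Cy5 signal of 1771, 1304 and 904, above the floor in every spot, so the deletion is taken from the labels and not from these values. Markers of haploid cells, which are usually low in diploids, were not all at background in this sporulating culture. Of 10 haploid-specific and mating genes, 6, 5 and 7 exceeded the reference by 2-fold or more at 6 hours, 20 minutes and 40 minutes, with log2 ratios from 0.00 to 4.14 at 6 hours. Both Cy3 spots of *BAR1* were under the floor on all 3 arrays, and both Cy5 spots were at 6 hours and 20 minutes, so the 0.00 is that of floor over floor. The part of haploid cells, or of the stage of meiosis, in the values below was not tested.

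At 6 hours in SPM each of the 10 genes exceeded the reference by at least 2-fold, as did 21.5% of all genes. Their log2 ratios had a median of 5.50 and ran from 2.29 for *SPO1* to 6.16 for *SMA1*. At the floors used here, *SMA1* had a log2 ratio of 6.16 ± 0.16, *SPO19* of 6.05 ± 0.12, *SPR1* of 6.01 ± 0.01, *SMA2* of 5.86 ± 0.05, *PES4* of 5.74 ± 0.08, *MIP6* of 5.27 ± 0.14, *SPR6* of 4.82 ± 0.12, *SPS4* of 4.55 ± 0.17, *MUM3* of 3.52 ± 0.08 and *SPO1* of 2.29 ± 0.06. The order of the genes with the highest ratios is not settled. With normexp background correction *SPO19* was at 6.92, *SMA1* at 6.64, *SMA2* at 6.6 and *SPR1* at 6.47, and with a floor at the buffer mean these genes stood at 4.58, 4.71, 4.39 and 4.58. *MUM3* and *SPO1* had the lowest ratios of the set in each setting, and here had ranks 173 and 451 of 6218 genes. The large ratios come with a dim reference. The mean Cy3 signal of 6 of the 10 genes was below the median of the buffer spots, which hold no DNA, at 6 hours, and the same was the case for 4 genes at each of the later times. Where both Cy3 spots of a gene were under the floor, the ratio to the reference is given as a lower bound at the floor used here, as for *SPO19* and *SMA2* at 6 hours; a higher floor gives a lower ratio. The array measures RNA of the whole culture, so fewer expressing cells and less RNA per cell cannot be told apart.

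After the transfer the genes were divided. At 20 minutes 9 of the 10 genes exceeded the reference by at least 2-fold (28.1% of all genes), and at 40 minutes 9 did (26.7% of all genes); the exception at both times was *SPO1*. A change is the log2 ratio at a time in YPD less the log2 ratio at 6 hours, and genes are counted as lower or higher from 1.5-fold and as stable within 1.3-fold. At 20 minutes 1 gene was lower, against 38.9% of all genes, and 1 was higher, against 26.2%. The 7 others within 1.3-fold were stable, as were 1513 of all 6218 genes. At 40 minutes 4 genes were lower (*SPO1*, *SMA1*, *SMA2* and *MUM3*), 4 were higher (*SPO19*, *SPR1*, *SPS4* and *SPR6*) and 2 were stable (*PES4* and *MIP6*). Over all genes 42% were lower, 26.9% were higher and 1306 of 6218 were stable at 40 minutes. The shares of the 10 genes that were lower or stable are thus near those of all genes. The division at 40 minutes depends on the scaling and the floor. With no array median subtracted, which lowers every gene alike at that time, 5 of the 10 genes were lower and 0 were higher, beside 62.7% and 16.2% of all genes. With the mean of the buffer spots as the floor, 6 were lower and 0 were higher, beside 47.2% and 14.9% of all genes.

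**Figure D1:**
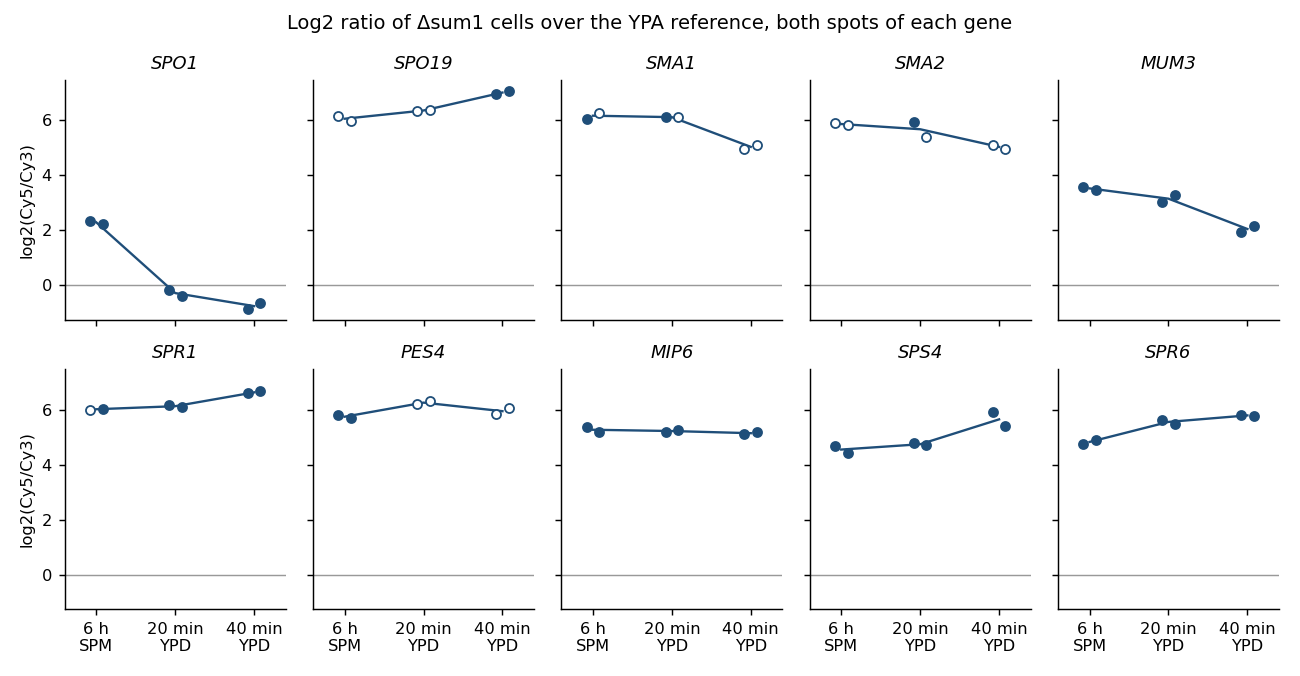
Log2 ratio of Cy5 (Δ*sum1* cells) over Cy3 (the reference in YPA) for each of the 10 genes at 6 hours of SPM, then 20 and 40 minutes of YPD. Points are the 2 spots of a gene, open where Cy3 was under the floor, and lines join their means; *SPO1* passes below 0 in YPD, where its mean was -0.28 and -0.76, and the means of the other 9 genes lie at 2.05 or above at every time.

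*SPO1* was the gene of the set that was lower soonest and by most. It codes for a meiosis-specific protein that resembles phospholipase B and is needed for spindle pole duplication and for the bending of the prospore membrane. Its Cy5 intensities were 13151 and 11438 at 6 hours in SPM, 1794 and 2087 after 20 minutes, and 758 and 779 after 40 minutes in YPD. Its log2 ratio was 2.29 ± 0.06, -0.28 ± 0.17 and -0.76 ± 0.16 at the same times, that is, 4.88-fold above the reference at first and 1.22-fold and 1.69-fold below it in YPD. The spots of the 3 time points did not overlap. The change was -2.57 ± 0.11 at 20 minutes and -3.04 ± 0.22 at 40 minutes, or 5.94-fold and 8.25-fold lower than at 6 hours. From the most negative change, it had rank 208 of 6218 genes at 20 minutes and rank 144 at 40 minutes. Most of this distance was covered by 20 minutes, and the further change from 20 to 40 minutes was -0.47 ± 0.33. *SPO1* was also the 1 member with a Cy5 intensity below 30000 at 6 hours, and at 40 minutes its Cy5 signal was below the mean of the buffer spots. It was lower at both times under every one of 12 other settings, from -3.14 to -2.03 at 20 minutes and from -3.73 to -2.64 at 40 minutes.

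*SPO19*, by contrast, was bright in Cy5 at all 3 times. It codes for a protein of the prospore membrane with a glycolipid anchor, first found because extra copies of the gene rescue *spo1* mutants. The Cy5 intensities of *SPO19* were 46194 and 41240 at 6 hours, 35876 and 37310 after 20 minutes, and 41506 and 41292 after 40 minutes. Its log2 ratios were 6.05 ± 0.12, 6.35 ± 0.04 and 7.01 ± 0.10. At the floors used here it thus exceeded the reference by at least 66.4-fold at 6 hours and by at least 81.8-fold after 20 minutes, but with the mean of the buffer spots as the floor its log2 ratio at 6 hours was 4.58. At 40 minutes its mean Cy3 signal of 547 was above the floor and below the median of the buffer spots, 644, so no exact fold is given. The change was 0.30 ± 0.16 at 20 minutes and 0.95 ± 0.21 at 40 minutes. Because both Cy3 spots were under the floor at 6 hours and above it at 40 minutes, this last value depends on the floor, and with normexp background correction it was -0.11. Its Cy5 intensity at 40 minutes was 0.947 times that at 6 hours, whereas the median Cy5 signal of the array was 0.378 times that at 6 hours.

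*SMA1* and *SMA2*, both needed for assembly of the prospore membrane, were far dimmer in Cy5 at 40 minutes than before. The Cy5 intensities of *SMA1* were 44643 and 50944 at 6 hours, 31412 and 30850 after 20 minutes, and 8408 and 9332 after 40 minutes. Those of *SMA2* were 39172 and 37285, then 29152 and 18839, and finally 9320 and 8271. At 40 minutes no spot of either gene overlapped those of the earlier times. The log2 ratios of *SMA1* were 6.16 ± 0.16, 6.11 ± 0.01 and 5.03 ± 0.10, and those of *SMA2* were 5.86 ± 0.05, 5.67 ± 0.39 and 5.03 ± 0.12. At 40 minutes both Cy3 spots of both genes were under the floor, as were both of *SMA2* and 1 of *SMA1* at 6 hours, so these ratios compare Cy5 with the floor. At 20 minutes both were stable, with changes of -0.05 ± 0.17 and -0.19 ± 0.34. At 40 minutes both were lower, with a change of -1.13 ± 0.06 for *SMA1* and -0.83 ± 0.07 for *SMA2*, and most of that change fell between 20 and 40 minutes, where it was -1.08 ± 0.10 and -0.64 ± 0.27. They were lower at 40 minutes under each of the 10 settings that gave a value, from -1.89 to -0.91 for *SMA1* and from -1.69 to -0.60 for *SMA2*. At 40 minutes each was at least 32.7-fold above the reference at the floor used here.

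*MUM3*, which codes for an acyltransferase-like protein needed for the outer layers of the spore wall, had Cy3 above the floor in every spot, so its ratios are no bounds. The Cy5 intensities of *MUM3* were 38433 and 36099 at 6 hours, 11996 and 11482 after 20 minutes, and 5209 and 3731 after 40 minutes. The log2 ratios were 3.52 ± 0.08, 3.15 ± 0.18 and 2.05 ± 0.15, or 11.5-fold, 8.86-fold and 4.13-fold above the reference. The spots at 40 minutes lay below those at both earlier times. Its change was -0.37 ± 0.26 at 20 minutes and -1.48 ± 0.23 at 40 minutes, or 2.78-fold lower, and -1.10 ± 0.03 between 20 and 40 minutes. At 40 minutes *MUM3* was lower under all 12 settings, from -2.21 to -1.32. At 20 minutes it was lower in 4 of 12, with -1.02 in the Cy5 channel alone, so when it became lower depends on the setting.

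*SPR1*, the sporulation-specific exo-1,3-beta-glucanase of the spore wall, showed the opposite course. Its Cy5 intensities were nearly level, at 42064 and 44876 at 6 hours, 39213 and 37950 after 20 minutes, and 37258 and 38299 after 40 minutes. The log2 ratios of *SPR1* were 6.01 ± 0.01, 6.12 ± 0.06 and 6.62 ± 0.05, with the spots at 40 minutes above all the others. Its change was 0.11 ± 0.08 at 20 minutes and 0.61 ± 0.03, or 1.53-fold, at 40 minutes. This stands just past the limit of 1.5-fold, was past it in 8 of 12 other settings, and was -0.076 with no array median subtracted.

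*SPS4* and *SPR6*, sporulation-induced genes whose functions are not established, were both higher at 40 minutes. *SPS4* had Cy5 intensities of 43594 and 43165 at 6 hours, 37840 and 39863 after 20 minutes, and 40455 and 40447 after 40 minutes. *SPR6* had intensities of 45302 and 44732, then 42453 and 40766, and finally 40940 and 41365. Neither gene had a Cy3 spot under the floor. The log2 ratios of *SPS4* were 4.55 ± 0.17, 4.74 ± 0.05 and 5.64 ± 0.36, that is 23.4-fold above the reference at 6 hours and 26.7-fold at 20 minutes. Those of *SPR6* were 4.82 ± 0.12, 5.55 ± 0.08 and 5.79 ± 0.04, or 28.3-fold, 46.9-fold and 55.2-fold. The genes differed in timing. *SPR6* was already higher at 20 minutes, by 0.73 ± 0.20, and lay only 0.24 ± 0.05 above that at 40 minutes, whereas *SPS4* was stable at 20 minutes, at 0.19 ± 0.12, and lay a further 0.90 ± 0.30 higher at 40 minutes. Against 6 hours, the change at 40 minutes was 1.10 ± 0.19 for *SPS4* and 0.96 ± 0.15 for *SPR6*. Both were higher at 40 minutes in 10 of 12 settings, and *SPR6* was higher at 20 minutes in 7 of 12, so its early change is less firm.

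*PES4* and *MIP6* were the stable pair. The Cy5 intensities of *PES4* were 41524 and 42195 at 6 hours, 33309 and 35671 after 20 minutes, and 15310 and 17756 after 40 minutes. *MIP6* gave 35190 and 37440, then 31551 and 33314, and finally 15216 and 15392. Both channels were dimmer at 40 minutes, Cy3 less so for *MIP6*, with a mean signal of 994 at 6 hours and 732 at 40 minutes. The ratios of the pair, scaled by the array median, did not follow their Cy5 intensities down. With no array median subtracted the change at 40 minutes was -0.49 for *PES4* and -0.81 for *MIP6*. The log2 ratios of *PES4* were 5.74 ± 0.08, 6.25 ± 0.09 and 5.94 ± 0.15, the last 2 of them bounds because both Cy3 spots were under the floor, at least 76.2-fold and at least 61.4-fold. Those of *MIP6* were 5.27 ± 0.14, 5.22 ± 0.04 and 5.14 ± 0.04, with no Cy3 spot under the floor. For *MIP6* the 3 time points differed by less than the spread between spots at 6 hours. The change of *MIP6* was -0.05 ± 0.18 at 20 minutes and -0.13 ± 0.17 at 40 minutes. That of *PES4* was 0.51 ± 0.17, between the limits for stable and higher, and 0.20 ± 0.23. Both were less stable in other settings, where the change at 40 minutes ran from -0.79 to 0.37 for *PES4* and from -0.81 to 0.16 for *MIP6*, and *MIP6* was counted as lower in 3 of 12.

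**Figure D2:**
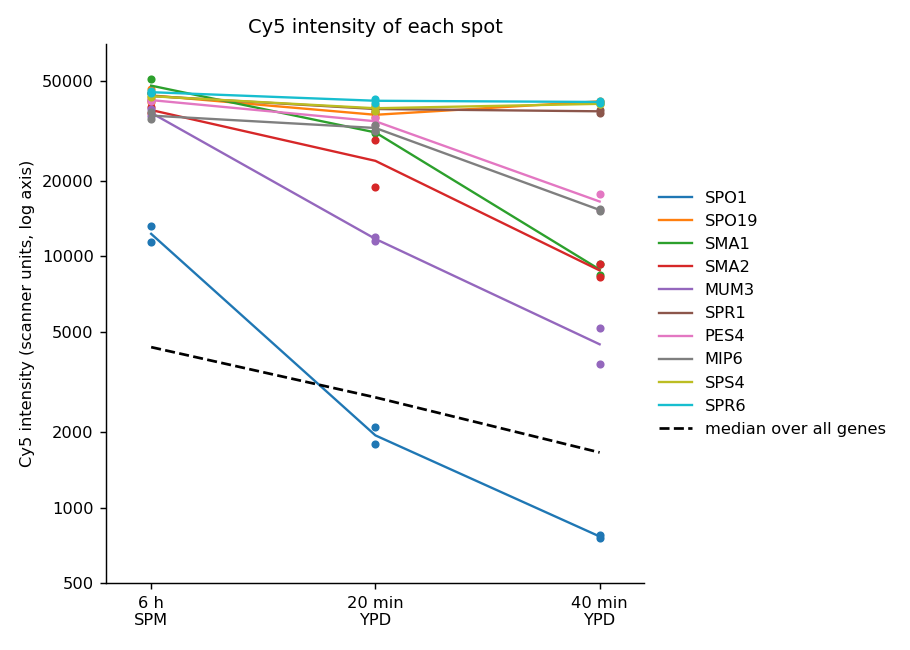
Cy5 intensity, in scanner units on a log axis, of both spots of each gene, at 6 hours of SPM and then 20 and 40 minutes of YPD; lines join the means of the 2 spots and the dashed line is the median over all genes. At 40 minutes *SPO19*, *SPR1*, *SPS4* and *SPR6* lie between 37258 and 41506, near their 6 hour values, while *SPO1* lies at 758 and 779.

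The genes counted as higher were those that were about as bright in Cy5 at 40 minutes as at 6 hours. At 6 hours 9 of the 10 genes had spots that averaged over 30000 in Cy5, as did 453 of the 6218 genes, and the brightest gene spot on that array read 55249. In YPD 7 of the 10 genes were above 30000 at 20 minutes and 4 at 40 minutes, and these 4 were the genes counted as higher, *SPO19*, *SPR1*, *SPS4* and *SPR6*. Their intensities at 40 minutes were 0.947, 0.869, 0.932 and 0.914 times those at 6 hours, so that in unscaled intensity none of the 4 was brighter in YPD. The median Cy5 signal of the array was meanwhile 0.378 times that at 6 hours, and the median subtracted from the log2 ratios was -0.07, -0.36 and -0.76 at the 3 times. Whether such bright spots were limited by the scanner or by the amount of DNA on the slide was not tested. The 453 bright genes are a background nearer to the set in brightness at 6 hours. Of them 44.4% were lower and 5.74% higher at 20 minutes, and 58.9% were lower and 16.1% higher at 40 minutes. They were chosen on the array from which each change is counted, so their share of lower genes may be in part built in. Of the 9 bright genes of the set, 0 were lower and 1 was higher at 20 minutes, and 3 were lower and 4 were higher at 40 minutes.

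**Figure D3:**
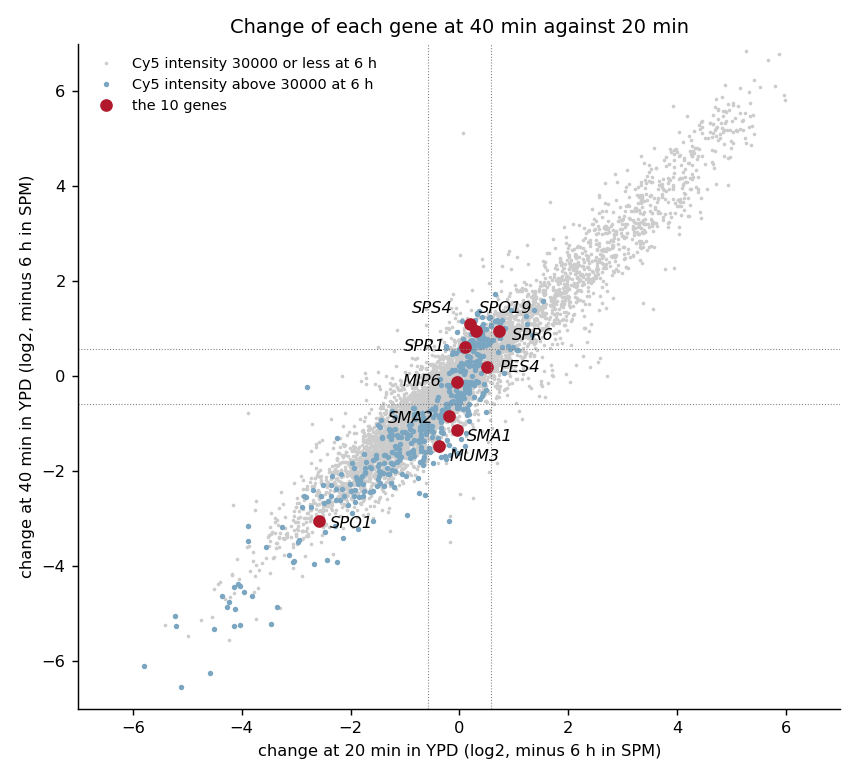
Change of each of the 6218 genes at 40 minutes in YPD (vertical axis) against its change at 20 minutes (horizontal axis), both in log2 units relative to 6 hours in SPM, with the 10 genes in red, genes with a Cy5 intensity above 30000 at 6 hours in blue and dotted lines at 1.5-fold. *SPO1* lies apart at -2.57 and -3.04, and the other 9 genes lie between -0.37 and 0.73 at 20 minutes and between -1.48 and 1.10 at 40 minutes.

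Both axes of this plot share the array at 6 hours, so the alignment of its points along the diagonal is in part built in. From 20 to 40 minutes, a comparison that leaves that array out, *SMA1*, *SMA2* and *MUM3* were at least 1.5-fold lower, as were 12.2% of all genes, and *SPO19* and *SPS4* were at least 1.5-fold higher, as were 7.88% of all genes. Among the 453 bright genes these shares were 28.3% and 5.96%. *SPO1* was not among the lower genes in that interval.

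The 10 genes were set beside other genes of mid-sporulation. As processed here, their median change lay between those of the spore wall and of the prospore membrane genes, and above that of the division genes. It was 0.03 and 0.04 at 20 and 40 minutes, against -0.25 and -0.32 over all genes. Over the 1338 genes that exceeded the reference by 2-fold or more at 6 hours it was -0.68 and -0.95. These 1338 were chosen on the array from which each change is counted, so their low medians may be in part built in. Among 19 other spore wall genes the median change was 0.30 and 0.58, with 1 lower and 4 higher at 20 minutes and 4 lower and 9 higher at 40 minutes. For 15 other genes of the prospore membrane and of the Smk1 kinase pathway, which controls spore wall assembly, it was -0.13 and -0.69, with 6 lower and 1 higher at first and 8 lower and 1 higher later. Genes of the meiotic divisions lay lowest, with a median of -1.46 and -2.01 over 13 genes. Of these, 10 were lower and 0 higher at first, and 12 lower and 1 higher later. At 6 hours 42 of the 47 genes on these 3 lists exceeded the reference by at least 2-fold, beside 21.5% of all genes. The 4 prospore membrane genes of the set had medians of -0.12 and -0.98, against -0.13 and -0.69 for the other prospore membrane and Smk1 pathway genes. At 40 minutes 4 of the 10 genes were lower and 4 higher, so their median of 0.04 stands for few of them. At that time the medians of these lists depended on the setting, and they did not all move alike. With normexp that of the division genes was -2.09, close to the -2.01 given above. That of the 10 genes was -0.74 with the mean of the buffer spots as the floor, beside -0.13 for the spore wall genes and -1.37 for the prospore membrane genes, and -0.53 with normexp, beside -0.25 and -1.03. Without spots under the floor it was 0.24 over 6 genes and lay above that of the spore wall genes, 0.08 over 12. Without spots of a signal-to-noise ratio under 3, the median of the 10 genes lay above that of the spore wall genes at both times. It was then 0.11 over 7 genes against -0.04 over 9 at 20 minutes. At 40 minutes it was 0.31 over 7 against 0.09 over 12. These are descriptions of single arrays, and the differences between the lists were not tested.

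**Figure D4:**
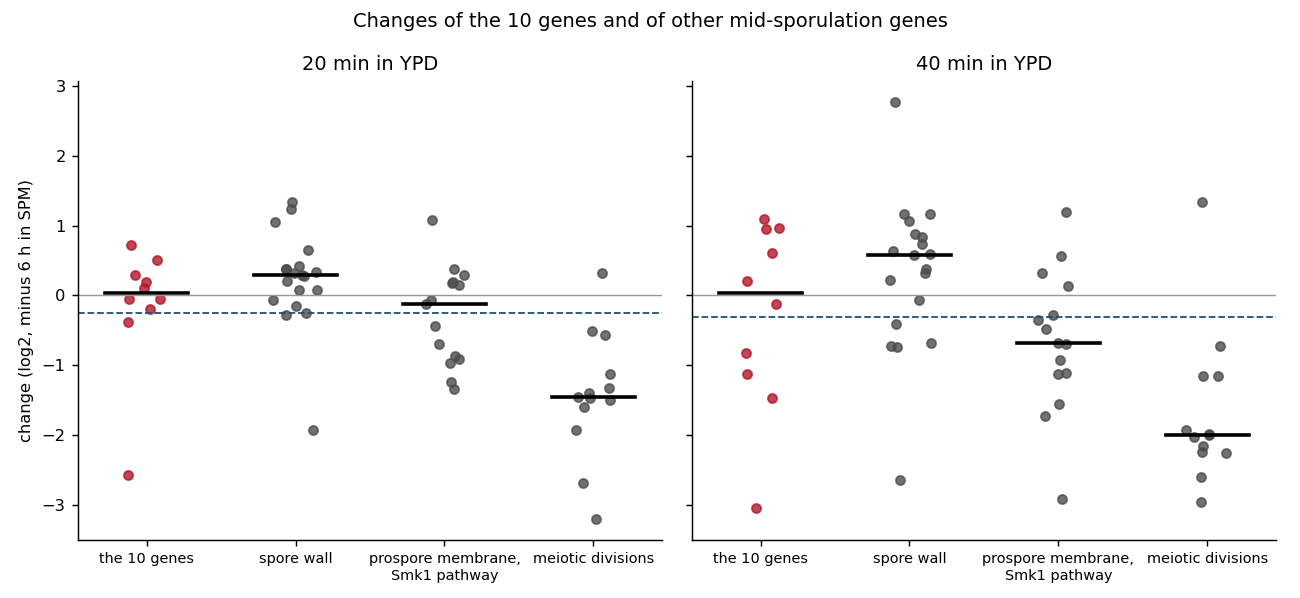
Change in log2 units relative to 6 hours in SPM for the 10 genes, 19 other spore wall genes, 15 other prospore membrane and Smk1 pathway genes and 13 meiotic division genes, after 20 minutes (left) and 40 minutes (right) in YPD. Each point is a gene, black bars are medians and the dashed line is the median over all genes; the medians at 40 minutes are 0.04, 0.58, -0.69 and -2.01.

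Relatives of the 10 genes that serve growing cells had lower ratios at 6 hours than their counterparts in the set, and some but not all were lower or higher together with them in YPD. *EXG1*, the main exo-1,3-beta-glucanase of the cell wall and a relative of *SPR1*, had a log2 ratio of -0.27 ± 0.06 at 6 hours, 2.37 ± 0.03 at 20 minutes and 2.4 ± 0.14 at 40 minutes. Its change of 2.64 and 2.67 was the largest among the 6 relatives examined, and at 6 hours it lay 1.21-fold below the reference where *SPR1* lay 64.5-fold above. *EXG2*, another glucanase gene, had log2 ratios of 1.27, 1.40 and 0.65. Of the phospholipase B genes, which *SPO1* resembles, *PLB1* had -0.06, -0.53 and -0.15, *PLB2* had -1.77, -2.96 and -2.85 and *PLB3* had 0.22, -0.64 and -1.04. None of the 3 was 2-fold above the reference at any time. Like *SPO1*, *PLB2* was lower in YPD, with a change of -1.19 at 20 minutes and -1.08 at 40 minutes, and so was *PLB3*, with -0.86 and -1.27, while *PLB1* had -0.48 and -0.09. *PAB1*, the poly(A)-binding protein gene and the RNA-binding relative of *PES4* and *MIP6*, had 0.23, 0.81 and 1.29, with a bright Cy3 signal of 36516 at 6 hours. Its change was 0.58 at 20 minutes, near the 0.51 of *PES4*, and 1.05 at 40 minutes, when *PES4* and *MIP6* were stable.

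The regulators of the pathway differed in the size of their change, and none was counted as higher in YPD. *NDT80*, the activator of the middle genes, had log2 ratios of 5.80 ± 0.02, 5.64 ± 0.04 and 5.25 ± 0.12, a change of -0.16 at 20 minutes and -0.56 at 40 minutes, which is under 1.5-fold. Its Cy3 spots were both under the floor at 6 hours, so that ratio is a bound. *IME1*, the master regulator that starts sporulation, had 0.20, -4.91 and -6.35, and *IME2*, a kinase gene of early and middle sporulation, had 4.68, 3.98 and 3.11. *RIM4*, which codes for an RNA-binding repressor of translation in meiosis, had 0.52, 0.36 and -1.14. At 40 minutes 3 of the 5 regulators were lower and 0 were higher, against 42% and 26.9% of all genes. The 5 include *SUM1*, the gene labeled as deleted, which had a change of 0.11. *SPO1* was lower by more than *NDT80* at both times. At 40 minutes *SPO19*, *SPR1*, *SPS4* and *SPR6* were counted as higher, while *NDT80* was lower by under 1.5-fold. This contrast depends on the scaling and the floor. The Cy5 intensity of *NDT80* was then 0.342 times that at 6 hours, and the bound at 6 hours may understate its fall. With no array median subtracted the 4 genes, in the order given, changed by 0.26, -0.076, 0.41 and 0.28, all under 1.5-fold.

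The gene nearest to each of the 10 over the 3 log2 ratios was sought by Euclidean distance. The 4568 candidates were annotated genes with both channels above the floor in every spot. None of the nearest genes was on the mid-sporulation lists, but the filter left out many genes of those lists. At 6 hours 15 of these 47 genes had a Cy3 spot under the floor. Among those left out, *LDS1* had log2 ratios of 6.03, 6.45 and 7.10, near the 6.05, 6.35 and 7.01 of *SPO19*. *SPO1* lay 0.06 from *HEM4*, a gene of heme synthesis, whose log2 ratios were 2.25, -0.25 and -0.73. *MUM3* lay 0.11 from *STE4*, a gene of the mating pathway, with 3.53, 3.05 and 2.08. *SMA1* and *SMA2* had the same nearest gene, the sporulation gene *SPS18*, at distances of 0.57 and 0.26. *SPR1* and *PES4* were both nearest to *IRC18*, at 0.36 and 0.66, and *SPS4* and *MIP6* to *CUZ1*, at 0.41 and 0.60. *SPO19* was nearest to the hexose transporter gene *HXT10*, at 0.42, and *SPR6* to *UBC11*, a ubiquitin-conjugating enzyme gene, at 0.42. A likeness over 3 values, each from 1 array, is a weak one.

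Adjacent genes on the chromosome were divided at 6 hours. Of the 20 genes on either side of the 10, 8 exceeded the reference by at least 2-fold at 6 hours, against the 21.5% of all genes given above. The median log2 ratio of the 20 was 0.38, and 6 of the 10 genes had at least 1 such neighbor. *MIP6* lies beside *SPO13*, an early meiotic gene that controls the first division. *SPO13* had a log2 ratio of 5.45 at 6 hours, close to that of *MIP6*, but of 0.92 and 0.39 in YPD, a change of -4.54 and -5.06 beside the stable *MIP6*. *MUM3* lies beside *TIM18*, a gene of the mitochondrial inner membrane, which had 3.87, 2.30 and 1.93. *SPO19* and *SPS4* each lie beside a ribosomal protein gene, *RPL5* at -2.55, 1.09 and 1.39 and *RPL20B* at -2.07, 1.42 and 2.37. At 6 hours these neighbors were thus below the reference next to genes far above it, and in YPD they were higher than at 6 hours, by 3.64 and 3.94 for *RPL5* and by 3.49 and 4.45 for *RPL20B*.

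**Figure D5:**
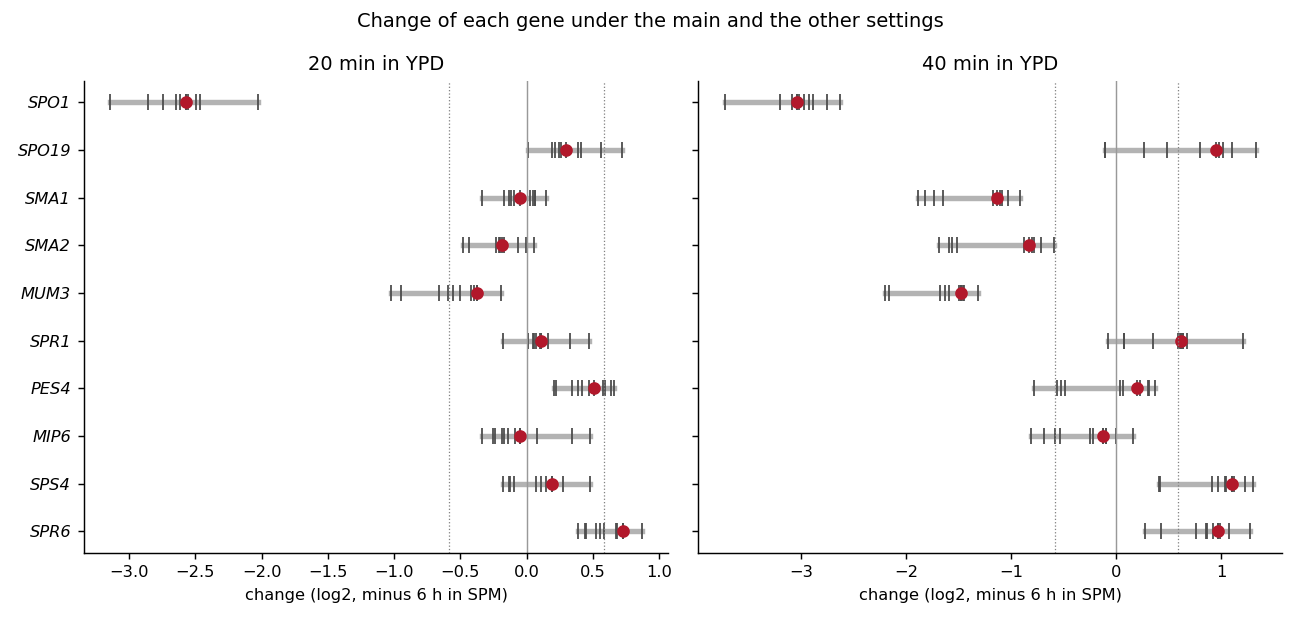
Change in log2 units relative to 6 hours in SPM of each gene after 20 minutes (left) and 40 minutes (right) in YPD, with the reported value as a red point, the values under the other settings as ticks and their range as a gray bar; dotted lines mark 1.5-fold. At 40 minutes *SPO1*, *SMA1*, *SMA2* and *MUM3* lie below 0 in every setting, and *SPO19* and *SPR1* reach from -0.11 to 1.33 and from -0.076 to 1.20.

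Across the settings the 4 genes lower at 40 minutes were lower in each setting that gave a value, while none of the 4 higher genes was higher in all of them. The settings include the omission of spots above 60000 and the deposited values, which could hardly differ from the values given here. *SPO19* was higher in 6 of 10. At 6 hours the lowest log2 ratio of any of the 10 genes in any setting was 2.19, for *SPO1*, so all exceeded the reference by over 2-fold wherever a value could be had.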

How the data were processed

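RNA of diploid Δ*sum1* cells (Cy5) and a common wild-type YPA reference (Cy3) had been hybridized to 3 arrays of PCR products, 1 per time point. The deposited files give for each spot the intensity and background of both channels in scanner units, quantified by the authors with QuantArray version 3, and per the file headers a signal-to-noise score from that software, used for 1 alternative. The authors' log2 ratios, deposited as a table of their own, had passed through background subtraction, a floor, median centring, removal of bad spots and averaging of duplicates. Both were used, the second for the floors and as an alternative.

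Here the background was subtracted from the intensity, signals below the floor were raised to it (for Cy5 656, 397 and 268 and for Cy3 690, 574 and 455 at the 3 times, recovered from the deposited values), log2(Cy5/Cy3) was taken, the median of the 12436 gene spots of each array was subtracted and the 2 spots of a gene were averaged. Apart from a constant per array, 97.9%, 98.4% and 98.1% of the genes then equaled the deposited values within 0.001. Median signal over background was 119, 288 and 96.7 for Cy5 and 28.7, 24.6 and 27.7 for Cy3; precision is limited by having 3 arrays. At least N-fold means that both Cy3 spots lay under these floors.

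No test was made. The 10 genes and all gene lists were chosen with earlier results of these data known. Genes were matched by ORF through the R64 annotation, which also gave the neighbors, and 5663 of 6218 array genes had a match; coordinates are left out, since the genome build behind the arrays is not given in the sources used here. Named were all 10 genes, their growth relatives, 5 regulators and the nearest gene of each by distance. Chosen after their values were seen were 4 of the neighbors, 1 haploid-specific gene and *LDS1*. Alternatives, 12 for the values and 2 for the fold limits, comprised the buffer mean as the floor, normexp (limma 3.58.1 in R 4.3.3, offset 50), loess, both, omission of spots under the floor, with a signal-to-noise ratio under 3 or above 60000, Cy5 alone, the deposited values, either spot alone and no median subtraction, which was added after the data had been seen. The computation was tested on simulated arrays with known changes.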

Additional observations from a re-analysis of the deposited data

How the results depend on the processing

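All 10 genes exceeded the reference by 2-fold at 6 hours, against 8 without spots under the floor and 9 without noisy spots (signal-to-noise ratio under 3), because these settings leave genes without a value. Against 1 lower and 1 higher gene and a median change of 0.03 at 20 minutes, and 4 lower, 4 higher and 0.04 at 40 minutes, the following differed. Percentages in parentheses are the shares of all genes under the same setting. With the mean of the buffer spots as the floor, 2 genes were lower (47%) and 0 higher (17.6%) at 20 minutes. At 40 minutes 0 were higher (14.9%), with a median of -0.74. With normexp, 2 were higher at 20 minutes (26.8%) and 2 at 40 minutes (28.9%), with a median of -0.53, and *SPO19* was at -0.11. With normexp and loess, 2 were higher at each time (27.6% and 27.5%), with a median of -0.58, and *SPO19* was at -0.10. With loess alone, 2 were lower (39.1%) and 0 higher (25.7%) at 20 minutes. In the Cy5 channel alone 2 were lower (34.6%), 0 were higher (27.7%) and the median was 0.36 at 20 minutes. At 40 minutes 2 were lower (43.7%) without spots under the floor, where 6 genes had a value. Without noisy spots 2 were lower (43.5%) at that time, with a median of 0.31. The second spot alone gave 2 higher genes (26.2%) at 20 minutes. With no array median subtracted, a choice made after seeing the data, 2 were lower (48.4%) and 0 higher (21.2%) at 20 minutes, with a median of -0.26. At 40 minutes 0 were then higher (16.2%), with a median of -0.65, and *SPR1* was at -0.076. The median over all genes in that setting was -0.54 and -1.0. A limit of 2-fold gave 0 higher genes at 20 minutes and 1 at 40 minutes, and one of 1.3-fold gave 2 at 20 minutes. The causes were not tested. Over the values of single genes in all settings, 244 lay within the pooled SD of the 2 spots from the value given here, whatever their sign. Another 87 moved further and 3 reversed. A change of sign counted as reversed only where the change given here was at least 1.5-fold. These counts include the setting without spots above 60000, which changed no value of the 10 genes. No paired analysis was possible because each time point has 1 array. No cultures were repeated, so the variation between cultures is unknown.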
